A study of Mus musculus with 8 samples.

Results

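The ligands, receptors and binding proteins of the TGF-beta and activin branch of TGF-beta signaling were followed through the left and right heart field of the mouse embryo. The 10 genes were chosen by symbol from the 48526 genes of the count table. They are the ligand genes *Tgfb1*, *Tgfb2*, *Tgfb3*, *Inhba* and *Inhbb*, the receptor genes *Tgfbr1*, *Tgfbr2* and *Tgfbr3*, and the binding protein genes *Fst* and *Fstl1*. Of these, 7 had enough reads to be tested between sides, while *Tgfb3*, *Inhba* and *Inhbb* did not and are given by their counts.

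TGF-beta ligands are secreted in a latent form and, once released, bring a type II receptor together with a type I receptor, which phosphorylates SMAD2 and SMAD3. Activins, dimers of inhibin beta subunits encoded by *Inhba* and *Inhbb*, use their own receptors but the same SMADs, and follistatin, the product of *Fst*, binds activins and keeps them from their receptors. In the developing heart the pathway is known above all for the change of endocardial cells into mesenchyme in the cushions, and NODAL, the ligand that patterns the left side of the embryo, signals through the same SMADs.

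The study compared gene expression between the left and right heart field, to look for asymmetry outside the *Nodal* pathway. It used 4 male wild-type embryos of the C57bl6/J strain at stage E8.5f, named L29-3, L43-5, L46-8 and L49-3, with no mutant and no treatment in any of them. After the heart and the back had been taken off, the heart field of each embryo was cut along the midline, so that the groups are 4 left and 4 right libraries of polyadenylated RNA that share 4 animals. The tissue is a dissected region and not a sorted cell type.

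The libraries held between 1147446 and 3520753 counted reads, with a median of 1916167, and 9744 genes passed the filter of the study, which asks for 20 or more normalized counts in 4 or more libraries. *Lefty2*, a NODAL target used here as a check of the sides, was higher on the left by 5.56 on the log2 scale (edgeR quasi-likelihood test, adjusted p = 4.69e-05). All 7 markers of the second heart field were tested, with a summed level of 340 to 503 CPM (counts scaled to the depth of the library) on the left and 450 to 500 on the right, and none passed the threshold between sides. Other tissues were present too. The summed level of 6 neural tube markers was 75.0 to 290 CPM on the left and 146 to 394 on the right, lower on the left in 3 of 4 embryos, and *Pax6* and *Sox1* passed the threshold with log2 values of -0.83 and -0.98. The sum of 8 endothelial markers was 355 to 455 CPM on the left and 260 to 431 on the right, higher on the left in 4 of 4 embryos. Of these 8 markers, only *Kdr* was itself higher on the left in 4 of 4. Primitive blood was nearly absent, with a summed level of at most 16.5 CPM over 4 markers, none of which reached the filter. Embryo L49-3 stood apart from the other 3, with 290 to 394 CPM of neural tube markers against 75.0 to 212, and 71.0 to 146 CPM of 5 juxta-cardiac and inflow field markers against 255 to 493. Its sums were also below those of the other embryos for endothelial markers, at 260 to 355 CPM against 399 to 455, and for 6 surface ectoderm markers, at 475 to 597 CPM against 602 to 792. For 8 cardiomyocyte markers the ranges overlapped, at 402 to 1362 CPM against 1166 to 3414. The part of these differences in the values below was not tested, and in bulk tissue fewer cells of a type and less RNA per cell cannot be told apart.

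The levels were first compared per length, as RPKM (reads per kilobase of merged exons, scaled to the depth of the library). *Fstl1*, which encodes a secreted glycoprotein related in sequence to follistatin, was the most abundant member, with 69.4 ± 5.91 RPKM (SD, n = 8 libraries). *Tgfb2* followed with 27.5 ± 5.36, *Tgfbr1* with 22.3 ± 1.84 and *Fst* with 20.2 ± 4.49. The order of these 3 genes did not hold in every library. *Tgfb2* was above *Tgfbr1* in 7 of 8 libraries and, by the mean of both sides, in 4 of 4 embryos. *Tgfbr1* was above *Fst* in 7 of 8 libraries and in 3 of 4 embryos. A lower group was formed by *Tgfbr3* with 6.46 ± 1.87 RPKM, *Tgfb1* with 4.29 ± 1.24, *Tgfbr2* with 1.94 ± 0.758 and *Tgfb3* with 1.496 ± 0.785. In this group *Tgfbr3* was above *Tgfb1* in 7 of 8 libraries, *Tgfb1* above *Tgfbr2* in 8 of 8, and *Tgfbr2* above *Tgfb3* in 6 of 8. With the longest transcript in place of the merged exons, *Fst* rose to the second place with 31.7 RPKM and *Tgfb1*, with 8.41, stood above *Tgfbr3*, with 6.95.

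**Figure D1:**
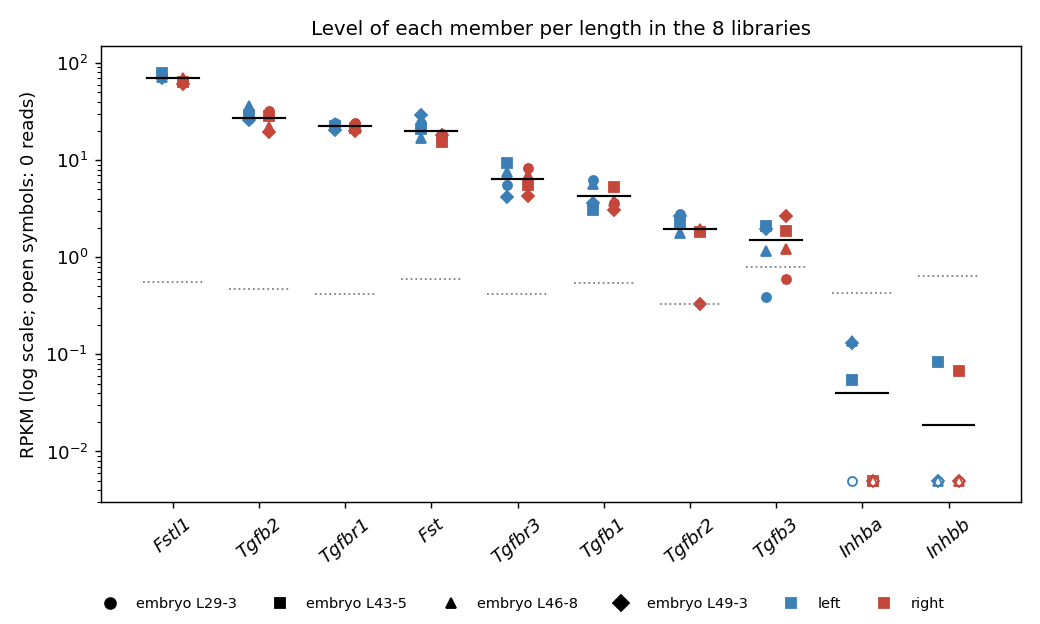
Level of the 10 members in RPKM on a log axis, with left libraries in blue, right libraries in red and a symbol for each embryo. The solid bar is the mean over 8 libraries and the dotted bar the value of 3 reads in the shallowest library. *Fstl1* lies highest, with 61.0 to 79.1 RPKM, and the points of *Inhba* and *Inhbb* lie below the value of 3 reads.

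The activin subunit genes were at or below the limit of detection. *Inhba* was counted with 4 reads in all, namely 1 on the left of L43-5, 2 on the left of L46-8 and 1 on the left of L49-3, and 0 in the other 5 libraries. *Inhbb* was counted with 2 reads in all, 1 on each side of L43-5. A count of 0 allows up to 3 reads, a limit that covers counting error only, so that no difference between the sides was detectable at this depth. Their binding protein gene *Fst* was measured with 92 to 270 reads. Set against 3 reads of the activin subunit in the same library, *Fst* was at least 42.7-fold higher per length than *Inhba* and at least 28.4-fold higher than *Inhbb* in each of the 8 libraries.

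*Tgfb2* made up most of the TGF-beta ligand RNA. Per length it took 82.3% ± 3.44 (SD, n = 8) of the sum of the 3 ligand genes, against 12.9% ± 3.02 for *Tgfb1* and 4.78% ± 3.05 for *Tgfb3*. Its level was 4.30 to 9.40 times that of *Tgfb1* across the 8 libraries. These shares and folds rest on merged exons. With the longest transcript the mean levels were 31.1 RPKM for *Tgfb2* and 8.41 for *Tgfb1*, a smaller fold, although *Tgfb2* remained the higher. Among the receptors, *Tgfbr1*, the type I receptor, took 73.0% ± 4.41 of the sum, *Tgfbr3*, the co-receptor betaglycan that presents TGF-beta2 to the signaling receptors, 20.7% ± 4.08, and *Tgfbr2*, the type II receptor, 6.23% ± 2.49. *Tgfbr1* exceeded *Tgfbr2* by 7.66 to 59.7 times, and the largest of these ratios came from the right library of L49-3, where *Tgfbr2* had 3 reads. None of the 6 shares differed between sides by an exact sign-flip test over 4 embryos, with p-values from 0.375 to 1 where the smallest possible two-sided p is 0.125.

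The sequences in front of *Tgfb1* and *Tgfb2*, and of *Tgfbr1* and *Tgfbr2*, are shown because each pair sets a weakly against a strongly expressed member of like function. Each is the 250 bases before the RefSeq start site in GRCm38.p6, from 5′ to 3′ on the strand of the gene. Capitals mark the GC box GGGCGG, bound by SP1, the SMAD motif CAGAC and the TATA box letters TATAAA, searched on both strands, and no marked motif overlaps another. They lie at chr7:25686752-25687001 (+) for *Tgfb1*, chr1:186705990-186706239 (-) for *Tgfb2*, chr4:47352972-47353221 (+) for *Tgfbr1* and chr9:116175364-116175613 (-) for *Tgfbr2*.
Tgfb1: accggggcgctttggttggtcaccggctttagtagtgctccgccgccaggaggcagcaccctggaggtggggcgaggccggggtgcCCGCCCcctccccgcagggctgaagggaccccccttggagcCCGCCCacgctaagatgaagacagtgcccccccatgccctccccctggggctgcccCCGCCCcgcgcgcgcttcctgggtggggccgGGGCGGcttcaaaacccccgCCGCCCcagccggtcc
Tgfb2: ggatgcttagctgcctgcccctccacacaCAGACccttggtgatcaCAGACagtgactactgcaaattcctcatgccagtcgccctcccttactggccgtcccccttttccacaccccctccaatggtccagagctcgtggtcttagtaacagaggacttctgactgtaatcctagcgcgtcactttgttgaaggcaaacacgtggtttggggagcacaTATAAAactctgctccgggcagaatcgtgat
Tgfbr1: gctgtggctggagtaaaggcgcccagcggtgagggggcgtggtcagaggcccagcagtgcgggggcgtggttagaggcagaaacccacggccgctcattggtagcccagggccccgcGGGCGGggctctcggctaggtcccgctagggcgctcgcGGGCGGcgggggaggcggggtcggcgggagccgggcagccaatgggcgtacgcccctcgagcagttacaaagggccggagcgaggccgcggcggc
Tgfbr2: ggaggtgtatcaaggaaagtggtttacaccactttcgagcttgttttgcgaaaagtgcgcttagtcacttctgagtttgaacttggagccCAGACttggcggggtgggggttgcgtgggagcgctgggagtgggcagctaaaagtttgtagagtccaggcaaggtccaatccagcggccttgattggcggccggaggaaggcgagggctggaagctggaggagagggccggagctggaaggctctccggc

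The window of *Tgfb1* held 5 GC boxes and neither of the other motifs, with a GC content of 75.2%. That of *Tgfb2*, the strongly expressed ligand, held no GC box, 2 CAGAC sites and 1 TATA box that begins 31 bases before the start site, with a GC content of 53.6%. For the receptors the features ran the other way with level, since the strongly expressed *Tgfbr1* had 2 GC boxes and a GC content of 74.8%, while *Tgfbr2* had no GC box, 1 CAGAC site and a GC content of 58.4%. GC boxes, CAGAC sites and GC content thus each went with level in opposite directions in the 2 pairs. Among 32851 windows of this length, 32.7% held a GC box, 42.2% a CAGAC site and 12.4% a TATA box, and the median GC content was 52.4%. The matches describe letters in these windows and no binding was measured.

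The left and right heart fields were then compared in each embryo. Of the 7 members tested, only *Fst* passed the threshold of the study, a fold of 1.2 or more in either direction together with an unadjusted p no higher than 0.05, and it was higher on the left. The study took genes that met these limits with limma-voom, DESeq2 or edgeR, while here they were applied to the edgeR fit alone. That threshold was passed by 3.05% of the 9744 genes tested, with 1.63% higher and 1.42% lower on the left, and 4.36% of genes had an unadjusted p under 0.05. The adjusted p of each of the 7 members was 0.987 (edgeR quasi-likelihood test, Benjamini-Hochberg adjustment over the 9744 genes), and 0.0103% of genes, a single gene, had an adjusted p under 0.05. The fitted log2 values of all 7 were above 0, against 48.6% of all genes tested, with a median of 0.18 against -0.0042. No member had left values that were separate from its right values, which was the case for 2.51% of the genes tested, 1.51% with the left and 1.01% with the right higher.

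**Figure D2:**
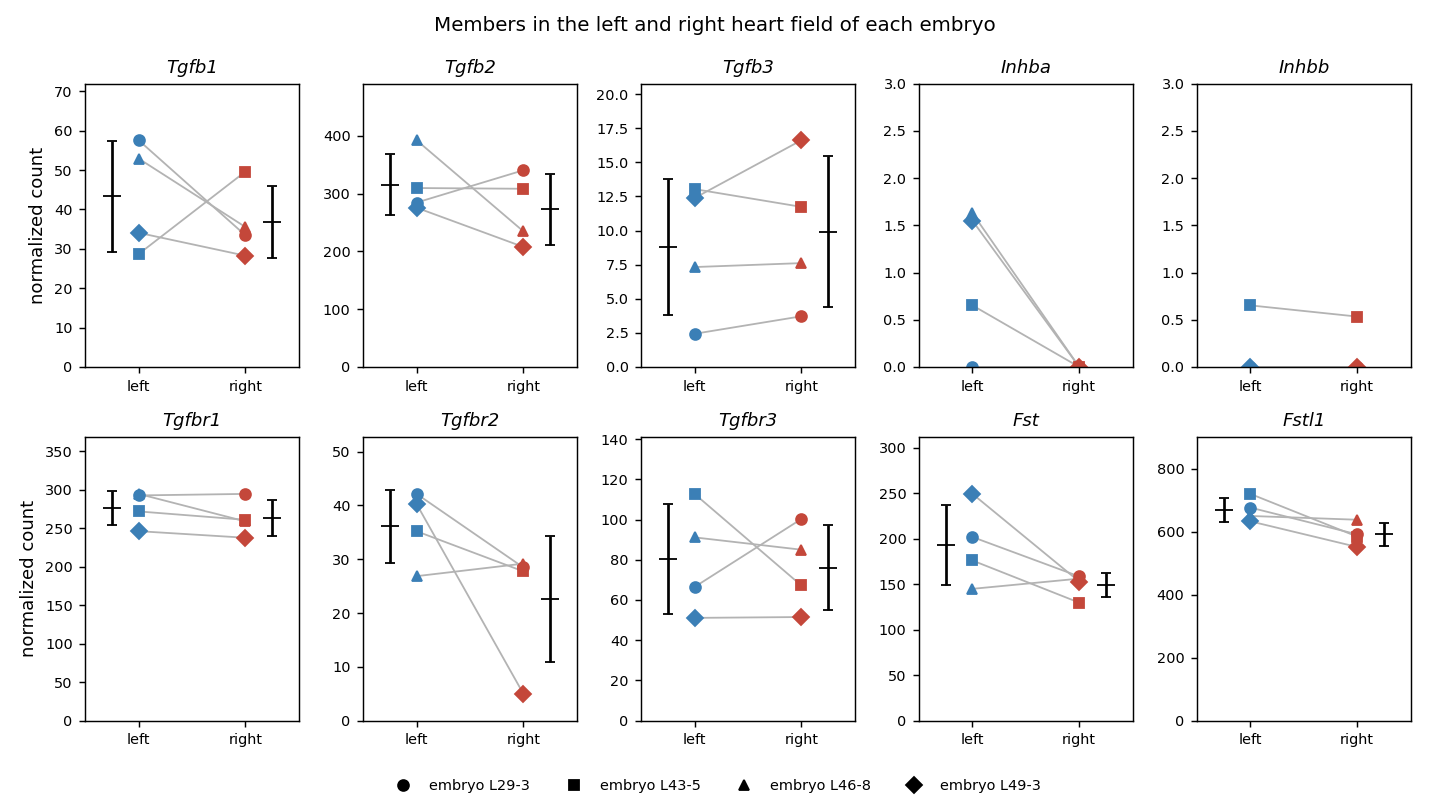
Normalized counts of the 10 members, with a gray line joining the left (blue) and right (red) library of each embryo. The black bars beside the points are the mean and SD over 4 libraries, drawn where a value exceeds 3. The ranges of left and right overlap in every panel, and the right library of L49-3 lies at 4.99 for *Tgfbr2*.

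*Fst* lies at chr13:114452290-114458951 on the minus strand. Its normalized counts on the left and right were 202 and 158 for L29-3, 176 and 130 for L43-5, 145 and 156 for L46-8, and 249 and 153 for L49-3. In 3 embryos the left library lay above all 4 right libraries, and in L46-8 it lay below its own right library. The left mean was 193 ± 44.2 and the right mean 149 ± 13.3 (SD, n = 4), with a log2 difference of 0.34 with a standard error of 0.12 and a 95% interval from 0.08 to 0.61 (edgeR, unadjusted p = 0.0157). In edgeR the call did not hold without L43-5 (unadjusted p = 0.0651, log2 0.30) or without L49-3 (unadjusted p = 0.0889, log2 0.24), nor did it with DESeq2 (unadjusted p = 0.0602), and the adjusted p ranged from 0.464 to nearly 1 over 11 alternatives. *Fst* shares 115 bases of its exons, 2.51%, with *Gm47040* on the opposite strand, and whether the counting used strand, which would tell such reads apart, is not known here. Likewise 2.14% of the exon bases of *Tgfb2* and up to 7.60% of those of *Tgfb3* lie opposite another gene, and 4.54% of those of *Tgfbr3* are shared with *Gm43422* on its own strand.

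*Fstl1*, at chr16:37776873-37836514 on the plus strand, was the only tested member higher on the left in 4 of 4 embryos, a pattern seen in 6.26% of the genes tested, and no member was lower on the left in 4 of 4, as 6.11% of genes were. Its normalized counts on the left and right were 677 and 592 for L29-3, 720 and 585 for L43-5, 650 and 638 for L46-8, and 633 and 552 for L49-3. The groups overlapped through the left library of L49-3, which lay just below the right library of L46-8. The log2 difference was 0.18 ± 0.07 (SE; edgeR, unadjusted p = 0.0224), a fold change of 1.13 and so under the minimum of 1.2. It remained under that minimum in all 11 alternatives, with log2 values from 0.14 to 0.23 and unadjusted p-values from 0.00659 to 0.117 across edgeR, DESeq2 and limma-voom. Of the stretches of 50 bases of *Fstl1*, 5.35% also occur in other genes, as do 3.85% of those of *Tgfbr3*.

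The ligands showed no difference between sides beyond the spread between embryos. *Tgfb2*, at chr1:186622792-186705989 on the minus strand, had normalized counts on the left and right of 285 and 340 for L29-3, 310 and 308 for L43-5, 392 and 235 for L46-8, and 276 and 208 for L49-3. It was clearly higher on the left in L46-8 and L49-3, level in L43-5 and lower on the left in L29-3, and the fit gave a log2 difference of 0.20 with a 95% interval from -0.09 to 0.48 (edgeR, unadjusted p = 0.161). Without L29-3 it passed the threshold, with a log2 difference of 0.36 (edgeR, unadjusted p = 0.0173), and without L46-8 the difference was 0.01. *Tgfb1*, at chr7:25687002-25705077 on the plus strand, had 57.6 and 33.4 for L29-3, 28.7 and 49.6 for L43-5, 52.9 and 35.5 for L46-8, and 34.1 and 28.3 for L49-3. L43-5 thus ran against the other 3 embryos. The log2 difference of *Tgfb1* was 0.14 with an interval from -0.42 to 0.71 (edgeR, unadjusted p = 0.590), it passed the threshold at 0.58 without L43-5 (unadjusted p = 0.0357), and it was below 0 without L29-3 or without L46-8. *Tgfb3*, the ligand gene required for palate fusion, was not tested, with 3, 20, 9 and 8 reads on the left and 3, 22, 6 and 10 on the right in L29-3, L43-5, L46-8 and L49-3. Scaled to depth, its left over right fold in the same order of embryos was 0.73, 1.10, 0.96 and 0.75, values that rest on these few reads. Of its stretches of 50 bases, 8.79% also occur in another gene.

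**Figure D3:**
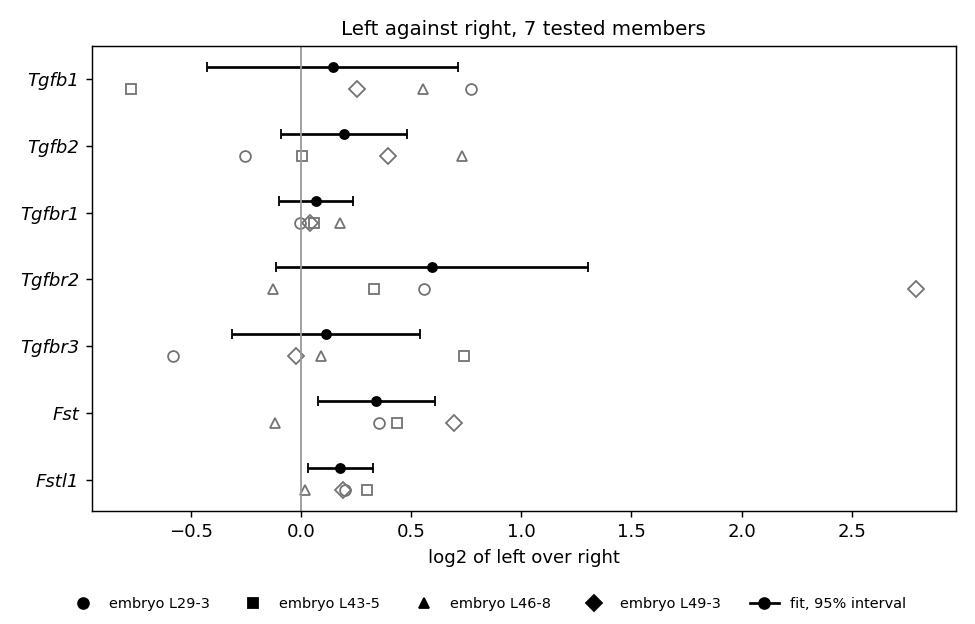
Log2 of left over right for the 7 tested members. Black points and bars are the edgeR fit with its 95% interval, and open symbols are the values of the single embryos. The intervals of *Fst* and *Fstl1* lie above 0, the other 5 include 0, and the symbol of L49-3 for *Tgfbr2* lies at 2.79.

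No receptor passed the threshold between sides. *Tgfbr1*, at chr4:47353222-47414931 on the plus strand, had normalized counts on the left and right of 293 and 295 for L29-3, 272 and 261 for L43-5, 295 and 259 for L46-8, and 246 and 238 for L49-3. Its log2 ratio of left to right had the smallest SD between embryos among the 7 tested members, at 0.08, and its fitted log2 difference of 0.07 had a 95% interval from -0.10 to 0.24 (edgeR, unadjusted p = 0.386), which lies within a fold of 1.2 in either direction. *Tgfbr2*, at chr9:116084293-116175360 on the minus strand, had 42.2 and 28.5 for L29-3, 35.2 and 27.7 for L43-5, 26.9 and 29.2 for L46-8, and 40.3 and 4.99 for L49-3. The last value stands for 3 reads against 26 on the left of the same embryo. It comes from the shallowest library, with 1147446 counted reads. That library also had the lowest endothelial sum, 260 CPM, and the highest neural tube sum, 394 CPM. The part of depth and of these tissues in the value was not tested. The log2 difference was 0.60 with an interval from -0.11 to 1.30 (edgeR, unadjusted p = 0.0913), and without L49-3 it fell to 0.28 (unadjusted p = 0.274). *Tgfbr2* passed the threshold in edgeR without L46-8 (unadjusted p = 0.0371) and with no filter on low counts (unadjusted p = 0.0120), and the adjusted p ranged from 0.956 to nearly 1 over its 10 alternatives. *Tgfbr3*, at chr5:107106570-107289629 on the minus strand, had 66.5 and 100 for L29-3, 113 and 67.2 for L43-5, 91.2 and 85.0 for L46-8, and 51.1 and 51.5 for L49-3. Its sides moved in opposite directions in L29-3 and L43-5, and the fit gave a log2 difference of 0.12 with an interval from -0.31 to 0.54 (edgeR, unadjusted p = 0.566).

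The balance of the type I to the type II receptor was compared as a ratio within each library, which does not depend on library size. The log2 of *Tgfbr1* over *Tgfbr2* per length averaged 3.28 ± 0.36 in left and 4.16 ± 1.17 in right libraries (SD, n = 4), with the left lower in 3 of 4 embryos and a mean difference of -0.88 ± 1.44 (exact sign-flip test, two-sided p = 0.375). Without L49-3 the difference was -0.18, so that most of it came from the 3 reads named above. The ratio of *Fst* to the sum of *Inhba* and *Inhbb* differed by -0.06 ± 0.75 between sides (exact sign-flip test, p = 0.875), with counts of 0 to 2 for the subunits, and its value was set by the pseudocount of 0.5 reads.

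Differences between embryos were tested with the side as a covariate. None of the 7 members had an adjusted p under 0.05 by the edgeR quasi-likelihood F test, and none had an unadjusted p under 0.05, while 0.174% of all genes had the former and 9.99% the latter. The smallest unadjusted p-values were 0.0942 for *Tgfbr3* and 0.0983 for *Fst*. The mean of the left and right normalized counts of *Tgfbr3* was 51.3 for L49-3 against 83.4, 90.0 and 88.1 for L29-3, L43-5 and L46-8, while that of *Fst* was 201 for L49-3 against 180, 153 and 150. These genes thus stood at opposite ends in L49-3, the embryo that its marker sums also set apart. *Tgfb1*, *Tgfb2*, *Tgfbr1*, *Tgfbr2* and *Fstl1* had their lowest mean in L49-3 too, so that *Fst* was the exception among the tested members. With the filter removed, where 641 genes had an adjusted p under 0.05, the adjusted embryo p in edgeR was 0.112 for *Tgfbr3*, 0.148 for *Tgfb3* and 0.189 for *Tgfb2*, and no member was called there.

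Across the 8 libraries the tested members varied together to different degrees, given here as a description over libraries that share embryos and depth. Pearson's r of log2 CPM was highest for *Tgfb2* and *Tgfbr1*, at 0.77, followed by *Tgfbr2* and *Fstl1* at 0.69, and lowest for *Tgfbr3* and *Fst*, at -0.35. Among all tested genes, the pattern most like that of *Fst* was seen for *Copg2* (r = 0.96), *Atxn7l2* (0.95), *Ppard* (0.94), *Plekha8* (0.93) and *Nedd4* (0.93). For *Fstl1* these genes were *Mecr* (0.96), *Tulp4* (0.93), *Glmp* (0.93), *Lamp2* (0.92) and *Kif16b* (0.92). For *Tgfbr2* they were *Baz2a* (0.97), *Mki67* (0.96), *Uggt2* (0.96) and *Arhgef40* (0.96). Each r of *Tgfbr2* includes the right library of L49-3, where it had 3 reads, its lowest value at 2.71 CPM. How far that library sets these values was not tested. With 8 points and 9744 genes, values of this size are the top of a long list.

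The other genes of the pathway were taken from a list of 49, of which 31 were tested. Of these, 3 passed the threshold with more on the left and 0 with less, against 1.63% and 1.42% of all genes, and the median log2 difference was 0.07 against -0.0042. *Thbs1*, which encodes a matrix protein that can activate latent TGF-beta, had normalized counts on the left and right of 85.9 and 55.7 for L29-3, 70.4 and 26.7 for L43-5, 35.8 and 20.3 for L46-8, and 74.3 and 41.5 for L49-3. All 4 embryos had more on the left, although the ranges of the sides overlapped, with a log2 difference of 0.95 ± 0.19 (SE; edgeR, unadjusted p = 2.91e-04, adjusted p = 0.473), and it passed the threshold in 11 of 11 alternatives. Its adjusted p ran from 0.00140 with no filter, where 34 genes had one under 0.05, to nearly 1. *Skil*, which encodes the SMAD co-repressor SnoN, had 85.9 and 52.0, 74.3 and 64.6, 97.7 and 71.1, and 63.5 and 51.5 in the same order of embryos. Its log2 difference was 0.41 ± 0.15 (unadjusted p = 0.0159, adjusted p = 0.987), with all 4 embryos higher on the left and the threshold passed in 9 of 11 alternatives. *Snai2*, a repressor induced when epithelial cells become mesenchymal, had 45.4 and 34.7, 75.6 and 62.4, 82.2 and 44.4, and 86.7 and 49.9. It exceeded the right side in each of the 4 embryos, by 0.55 ± 0.16 (unadjusted p = 0.00574, adjusted p = 0.987) and passed the threshold in 11 of 11 alternatives.

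The remaining groups of the list were described by their most abundant genes. Of 7 further receptors and co-receptors 6 were tested and 0 passed, with *Acvr2b*, the activin type II receptor, at a log2 difference of 0.0041 (edgeR, unadjusted p = 0.973) and *Acvr1b*, the activin type I receptor, at 0.07 (unadjusted p = 0.642). Of 11 genes of latency and activation 4 were tested and *Thbs1* alone passed, while *Furin*, the convertase that cleaves the propeptide, had -0.13 (edgeR, unadjusted p = 0.272) and *Ltbp1*, which anchors the latent complex in the matrix, 0.16 (unadjusted p = 0.248). Among 4 antagonists and binding proteins, *Gpc1* had -0.05 (edgeR, unadjusted p = 0.567) and *Bgn* 0.06 (unadjusted p = 0.833). Of 5 further ligands only *Gdf11* reached the filter, with 0.12 (edgeR, unadjusted p = 0.537), and *Inha*, the alpha subunit of inhibin, had at most 6.19 normalized counts. All 10 SMADs and co-repressors were tested, with 5 values above and 5 below 0, among them *Smad4*, the common SMAD, at -0.02 (edgeR, unadjusted p = 0.834) and *Ski*, the paralog of *Skil*, at 0.0068 (unadjusted p = 0.945).

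Of 12 target genes 8 were tested and all 8 had log2 values above 0, against 48.6% of all genes tested. Their median was 0.20 against -0.0042, and the 95% intervals of all but *Fn1* and *Snai2* included 0. *Snai2* alone passed the threshold, which 1.63% of all genes passed with more on the left. *Fn1*, which encodes fibronectin and was the most abundant, had 3823 to 4874 normalized counts on the left and 3382 to 4119 on the right and differed by 0.20 ± 0.06 on the log2 scale (edgeR, unadjusted p = 0.00829), a fold change of 1.15, and its adjusted p was 0.987, or 0.00437 with no filter. In L29-3 its sides were level, with 4109 and 4119 normalized counts, and in the other 3 embryos the left was higher. *Acta2*, smooth muscle actin, had a difference of 0.03 with an interval from -0.48 to 0.54 (edgeR, unadjusted p = 0.898). The summed level of endothelial markers was also higher on the left in 4 of 4 embryos, but *Kdr* was the only single marker that was. *Pecam1*, *Cdh5* and *Emcn* were each higher on the left in 1 of 4. The left and right endothelial sums were 441 and 428 CPM for L29-3, 409 and 399 for L43-5, 455 and 431 for L46-8, and 355 and 260 for L49-3. The summed level of neural tube markers was lower on the left in 3 of 4. The part of these markers in the values of the target genes was not tested.

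**Figure D4:**
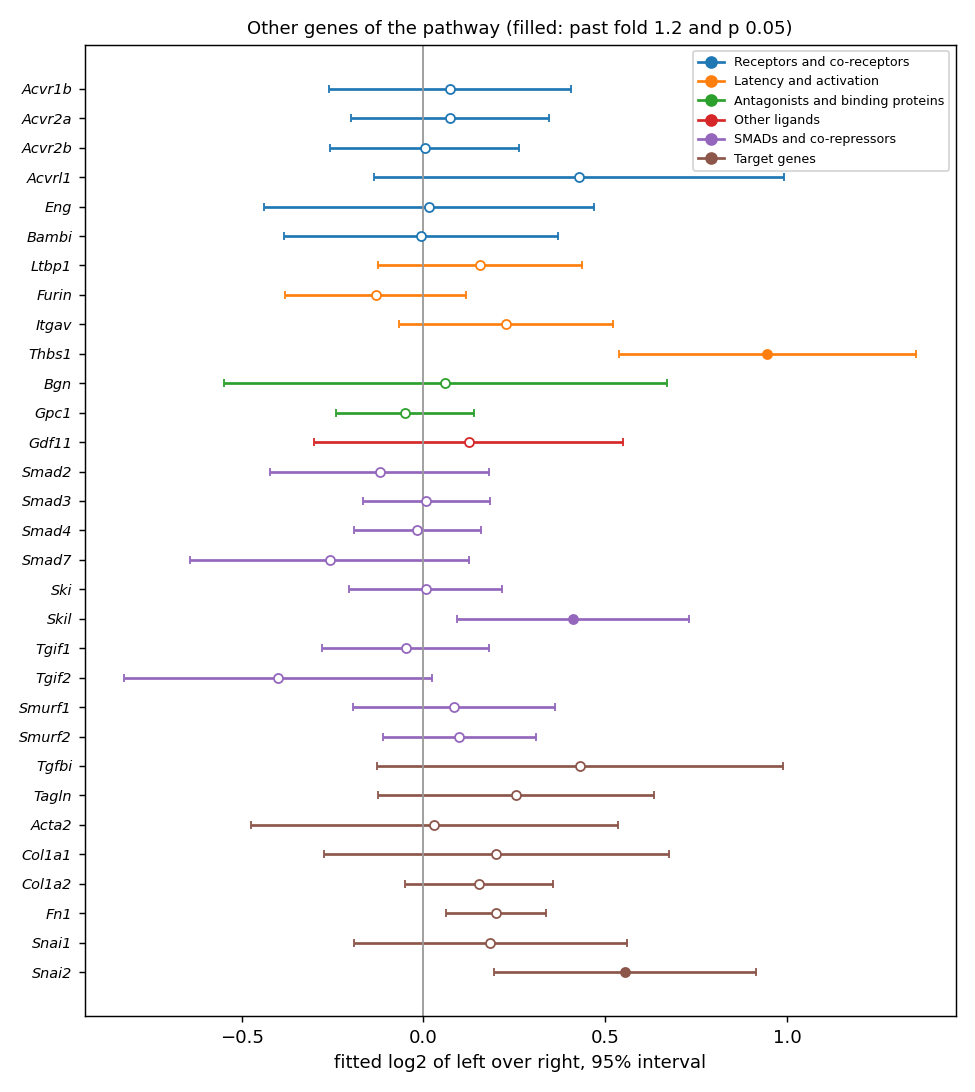
Fitted log2 of left over right with its 95% interval for the 31 tested genes of the wider pathway, colored by group. Filled points passed the threshold, which were *Thbs1* at 0.95, *Skil* at 0.41 and *Snai2* at 0.55, and the 10 SMADs and co-repressors lie on both sides of 0.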

How the data were processed

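Alignment to GRCm38 was done by the authors with HISAT2, and after removal of duplicates they counted reads per gene with featureCounts; the deposited values are these counts, not normalized. The versions of these tools, and whether strand was used, are not given in the sources used here. The submitters' processing notes also name limma 3.40.6 and DESeq2.

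Symbols, positions and exon lengths were taken from GENCODE release 21 for mouse, which gave a symbol to 48144 of 48526 genes. Genes that reached 20 counts, normalized by DESeq2 size factors, in 4 or more of the 8 libraries were fitted with edgeR 4.0.16 in R 4.3.3 (TMM, quasi-likelihood test, embryo as a block) and adjusted by Benjamini-Hochberg over 9744 genes. Other fits used limma 3.58.1 and DESeq2 1.42.0. Log2 ratios of single embryos used a pseudocount of 0.5 CPM. RPKM was computed from TMM-scaled counts and merged exons. Ratios and shares were compared by an exact sign-flip test over 4 embryos.

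Both libraries of an embryo come from the same animal, which is the pairing. Their deviations from the side means correlated by 0.164 (L29-3), 0.194 (L43-5), -0.0107 (L46-8) and 0.444 (L49-3), and by -0.389 to 0.257 between embryos. No pair of libraries differed by as little as sampling noise, since chi-square per degree of freedom was 1.93 or more. The p-values rest on 4 animals.

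Members were picked by symbol, with no threshold on their values, but members, gene lists and tests were chosen with earlier results of these data known. The text names all 10 members, the other pathway genes past the threshold, the 2 most abundant of the rest in each group, and the 5 genes most correlated with each of the 3 members of smallest p, of which 1 is not reported here. *Ctgf* was matched as *Ccn2*. RefSeq windows were found for 7 of 10 members and not for *Tgfb3*, *Tgfbr3* and *Fst*.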

Additional observations from a re-analysis of the deposited data

Results flagged for a closer look

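Dixon's test was run in 33 groups of 4 values. It compared single libraries with the other 3 of their side, and the log2 ratio of an embryo with those of the other 3. In independent groups chance would mark about 1 in 20. Several groups here share reads, and a value beside 3 values of 0 is always marked, so that this rate is only a rough guide. The normalized count of *Tgfbr2* in the right library of L49-3 was 4.99, against 27.7 to 29.2 in the other 3 right libraries, and the log2 ratio of *Tgfbr1* to *Tgfbr2* in the same library was 5.90, against 3.47 to 3.70. Both values rest on the same 3 reads. Marker sums also set L49-3 apart, and its right library was the shallowest of all. The part of marker sums and of depth in this value was not tested. The other 3 values came from single reads of *Inhbb* in L43-5, namely a normalized count of 0.652 on the left and of 0.534 on the right, where the other 3 libraries of each side were at 0, and the log2 ratio of 0.11 that follows from them.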

How the results depend on the processing

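With 1 member past the threshold in the reported fit, 2 passed with no filter on low counts, 0 with DESeq2, and 0 to 2 with an embryo left out; without the replicate block, so that samples were not paired, 1 passed, with a log2 difference of 0.36 for *Fst*. Genes past the threshold numbered 297, against 687 with no filter, 59 with DESeq2 and 233 with no replicate block. Genes that differed between embryos numbered 17, against 641 with no filter, 9 with at least 10 counts in every library, 48 with DESeq2, 4 with limma-voom and 0 to 237 with an embryo left out; the 0 was reached without L49-3. With an embryo left out, *Tgfb1* ranged from -0.0705 to 0.58 and *Tgfbr3* from -0.19 to 0.36 on the log2 scale, and the ratio of *Fst* to the activin subunits from -0.395 to 0.21; a pseudocount of 2 reads gave 0.37. With the longest transcript, 5 of 10 members kept their rank by level. The cause of these changes was not tested. Another scaling, by DESeq2 size factors or library size alone, left every member's direction and side of the threshold as reported, and moved the median of all genes by less than 0.1. *Tgfbr2* could not be tested where 10 counts were required in every library. With 4 embryos, an exact test over embryos cannot reach 0.05, and depth leaves *Inhba*, *Inhbb* and *Tgfb3* without a usable comparison.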

Other observations

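A pair of pathway genes outside the rule for naming are given here because of their values. *Itgb8*, whose product forms an integrin that activates latent TGF-beta, did not reach the filter and was not tested, but its normalized counts were 12.2 to 17.0 on the left and 7.61 to 11.7 on the right. Its left values all lay above its right values, a pattern seen in 1.51% of the genes that were tested, a set without *Itgb8*. The gene is named because of this pattern, so that the share is not a test of it. *Postn*, which encodes the matrix protein periostin, passed with no filter on low counts (edgeR, log2 2.21, adjusted p = 3.22e-04), yet its reads on the left and right were 60 and 4 in L43-5 and 44 and 3 in L46-8, against 2 and 8 in L29-3 and 0 and 1 in L49-3. The direction thus held in 2 of 4 embryos only. With no filter 34 genes had an adjusted p under 0.05, against 1 in the reported fit.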
